A study of Mus musculus with 8 samples.

Results

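The 8 genes described here encode purine receptors, the membrane proteins that sense extracellular ATP, ADP and adenosine: the ATP-gated channels P2rx3, P2rx4, P2rx5, P2rx6 and P2rx7, the ADP receptor P2ry1, and the adenosine receptors Adora1 and Adora2a. They are 8 of the 23278 genes measured in each library. They were taken by name, except that P2rx7 was selected on its low RPKM in SMA motor neurons compared with WT motor neurons. Its values in motor neurons are therefore a description with no test. RNA-seq had been run on tissue captured by laser from the lumbar cord of 1-day-old FVB/N mice that model spinal muscular atrophy (SMA), in which too little survival motor neuron protein leads to the death of motor neurons. The SMA mice were of the genotype SMN2+/+;SMNΔ7+/+;Smn-/-, which joins loss of mouse Smn with the human SMN2 gene and a human SMN transgene lacking exon 7, and the mice they were compared with were labelled WT. Ventral horn motor neurons and the surrounding white matter, which the labels call white matter glia, were captured from sections stained with hematoxylin, by position and shape rather than by a marker gene. Each of the 4 groups (SMA motor neurons, WT motor neurons, SMA white matter and WT white matter) held 2 libraries. The labels do not say how many animals gave a library, so the p-values reflect the variation among these libraries alone. Its technical part was not separated from differences between animals.

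ATP released from active, stressed or damaged cells opens P2X channels and activates P2Y receptors, enzymes on the cell surface then break it down stepwise to adenosine, and adenosine acts on its own receptors. P2X7 needs far more ATP than the other P2X channels, and in microglia, the immune cells of the cord, its opening is known for triggering the inflammasome and the release of interleukin-1 beta. In neurons the adenosine A1 receptor encoded by Adora1 is known for damping transmitter release.

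Levels are in RPKM, in which read numbers are divided by the length of the gene model and by library size, and differences are in log2(RPKM + 1) unless a ratio of mean RPKM is named. The added 1 shrinks differences of genes near or under 1 RPKM. The libraries were scaled to 77.5 to 102.8 M reads, and 11539 to 12796 genes per library reached 1 RPKM. Smn1 was listed at 0 in all 4 SMA libraries, against 6.82 and 2.93 RPKM in WT motor neurons and 5.30 and 14.3 RPKM in WT white matter. All 7 motor neuron markers were higher in motor neurons than in white matter of each genotype. All 10 microglial markers and the 7 tested myelin markers were lower. Over all genes tested 18.6% were higher and 9.85% lower in WT mice, and 13.6% and 17.2% in SMA mice. Chat, Isl1 and Mnx1 reached 1 RPKM only in motor neurons, and Mog and Mobp only in white matter. Their direction was thus fixed by the filter on low values given next. Tests were made with limma over the 13948 genes that reached 1 RPKM in at least 2 libraries, with Benjamini-Hochberg adjustment and a threshold of 0.05. Of the 8 receptor genes 6 passed this filter. P2rx3 and Adora2a did not, and P2rx5 passed only through motor neuron libraries. Xist, the RNA of the inactive X chromosome, was at 12.6 to 37.0 RPKM in the 4 replicate 1 libraries and at most 0.058 RPKM in the 4 replicate 2 libraries, while the Y-linked Ddx3y was at 0 in replicate 1 and at 0.628 to 6.37 RPKM in replicate 2. In all 4 groups the replicate number thus went with sex, 1 library of each. The libraries of a group therefore came from different animals, and their spread joins sex, animal and technical differences.

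P2rx7 and P2rx4, an ATP-gated channel that microglia also carry, lie near each other on chromosome 5, and both had their highest levels in white matter. Their promoters are shown beside that of Adora1, the receptor gene with the highest level in motor neurons. Each window runs from 250 bases before to 50 bases after a RefSeq transcription start (GRCm38.p6). Capitals mark the GC box GGGCGG and the SOX-type motif ACAANG, each searched on both strands. The P2rx7 window is chr5:122643677-122643976 on the plus strand, the P2rx4 window chr5:122707294-122707593 on the plus strand and the Adora1 window chr1:134235408-134235707 on the minus strand.
P2rx7: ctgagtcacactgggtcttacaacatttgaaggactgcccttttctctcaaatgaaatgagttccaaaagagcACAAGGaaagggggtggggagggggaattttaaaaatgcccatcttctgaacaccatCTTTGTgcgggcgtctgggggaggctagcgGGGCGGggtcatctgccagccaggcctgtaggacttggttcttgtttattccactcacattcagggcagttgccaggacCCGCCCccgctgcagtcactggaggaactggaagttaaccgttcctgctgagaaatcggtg
P2rx4: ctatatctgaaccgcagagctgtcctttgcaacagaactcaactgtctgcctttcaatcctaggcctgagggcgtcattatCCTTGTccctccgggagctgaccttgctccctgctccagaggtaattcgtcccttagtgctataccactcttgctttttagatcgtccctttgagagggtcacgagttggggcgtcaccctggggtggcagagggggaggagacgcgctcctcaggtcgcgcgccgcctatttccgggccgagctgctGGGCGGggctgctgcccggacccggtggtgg
Adora1: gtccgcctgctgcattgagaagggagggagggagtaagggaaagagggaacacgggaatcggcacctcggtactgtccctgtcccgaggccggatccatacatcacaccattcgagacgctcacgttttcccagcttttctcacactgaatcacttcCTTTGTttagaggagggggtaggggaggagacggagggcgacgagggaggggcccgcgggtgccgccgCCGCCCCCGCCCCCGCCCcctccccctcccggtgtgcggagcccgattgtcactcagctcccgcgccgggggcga
The P2rx7 window held 2 GC boxes, 2 SOX-type motifs and 8 CpG sites, the P2rx4 window 1 GC box, 1 SOX-type motif and 18 CpG sites, and the Adora1 window 3 GC boxes, 1 SOX-type motif and 26 CpG sites. GC boxes were present in 35.7% and SOX-type motifs in 41.2% of all 32851 windows. The GC content was 53.3% for P2rx7, 60.3% for P2rx4 and 66.0% for Adora1, against a median of 52.7% over all windows. P2rx7 and Adora1 each have another start in the table, and which start the spinal cord uses was not measured. The window at the other P2rx7 start held 0 GC boxes, 0 SOX-type motifs and 4 CpG sites. That at the other Adora1 start held 0 GC boxes, 0 SOX-type motifs and 24 CpG sites. P2rx6 and P2ry1 also had windows, while P2rx3, P2rx5 and Adora2a were not matched.

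P2rx7 had the widest range of RPKM among the receptor genes. Its level was 0.409 and 0.391 RPKM in SMA motor neurons, against 5.27 and 2.94 RPKM in WT motor neurons. In white matter it was 15.8 and 18.8 RPKM in SMA mice, against 15.6 and 10.3 RPKM in WT mice. The order of the groups was therefore SMA white matter, WT white matter, WT motor neurons and SMA motor neurons, with a wide gap between white matter and motor neurons and a narrow one between the genotypes in white matter. The means were 0.400 ± 0.0131 RPKM in SMA motor neurons and 4.11 ± 1.65 RPKM in WT motor neurons, then 17.3 ± 2.13 RPKM in SMA white matter and 12.97 ± 3.74 RPKM in WT white matter (SD, n = 2 each). The level in SMA motor neurons was 9.74% of that in WT motor neurons. The SMA motor neuron values rest on 27 and 26 reads, against 388 and 184 reads in WT motor neurons. On the log2(RPKM + 1) scale the SMA minus WT difference in motor neurons was -1.83. It was -3.02 with a pseudocount of 0.1 RPKM and -3.30 with limma-voom on read numbers.

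**Figure D1:**
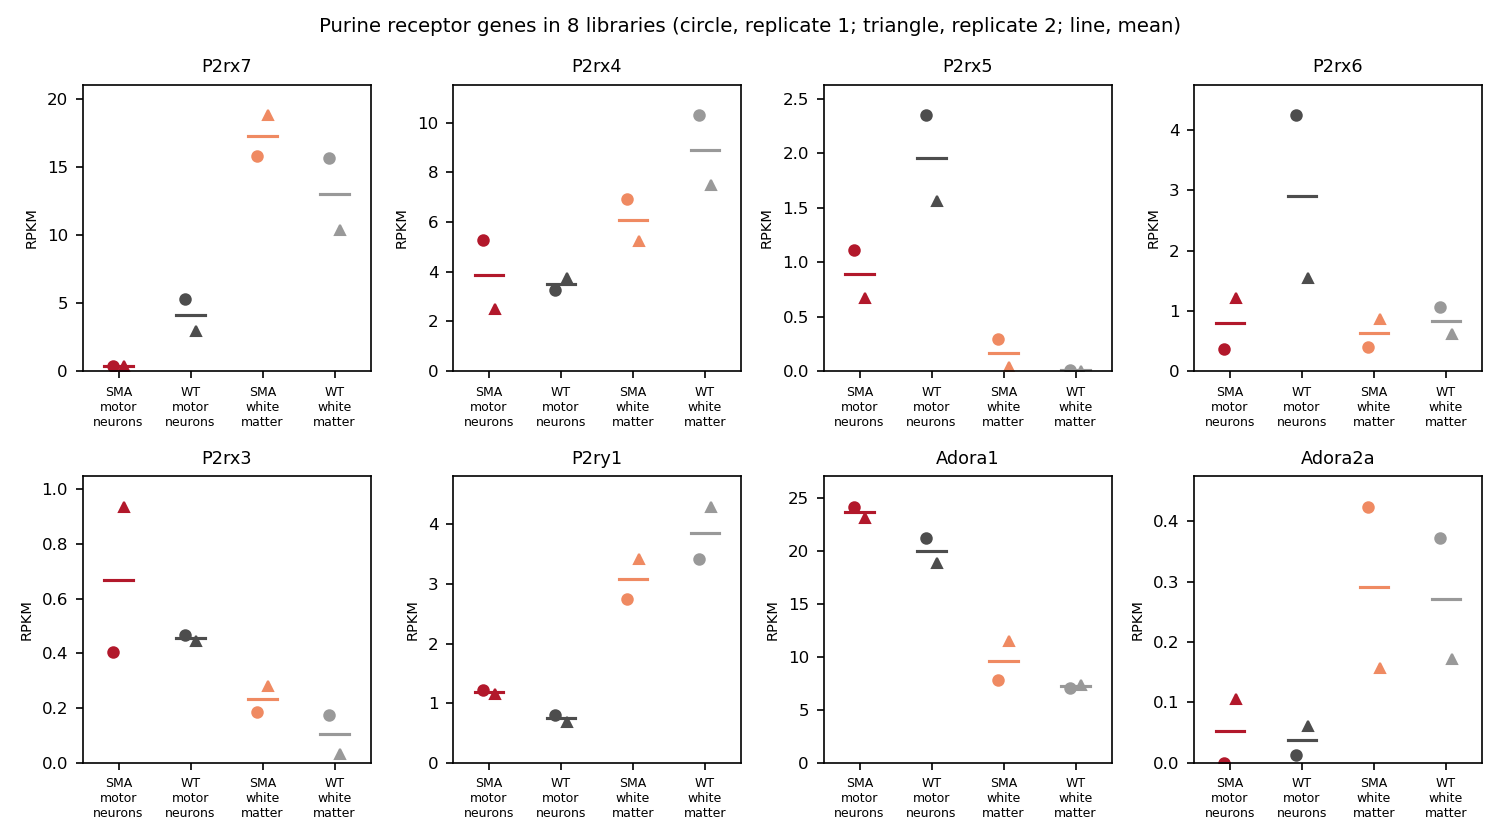
RPKM (vertical axis, linear, from 0) of the 8 purine receptor genes in SMA and WT motor neurons and SMA and WT white matter, with a circle for replicate 1, a triangle for replicate 2 and a line for the mean of the 2 libraries. P2rx7 was at 0.409 and 0.391 RPKM in SMA motor neurons, under the 2.94 and 5.27 RPKM of WT motor neurons, while Adora1 was at 18.9 to 24.2 RPKM in all 4 motor neuron libraries.

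In white matter P2rx7 did not show a difference past the threshold. The SMA minus WT difference was 0.41 ± 0.36 (SE; 95% interval -0.40 to 1.22; adjusted p = 0.812 by limma). Across all genes the median of this contrast was 0.27, so P2rx7 lay 0.13 above the median. That median was 0.0011 when the libraries were rescaled by median of ratios, and the P2rx7 difference was then 0.096. The 2 SMA libraries lay above the 2 WT libraries, as did 39.7% of all genes tested. The nearest values, 15.8 RPKM in SMA replicate 1 and 15.6 RPKM in WT replicate 1, were almost equal.

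In motor neurons minus white matter, P2rx7 differed by -3.70 in SMA mice and by -1.46 in WT mice. As ratios of mean RPKM, SMA motor neurons held 2.31% of the SMA white matter level, and WT motor neurons held 31.6% of the WT white matter level. The SMA effect in motor neurons minus that in white matter was -2.24 for P2rx7, against a median of -0.33 over all genes. These 3 values use the motor neuron libraries that chose the gene and were not tested.

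P2rx7 is best known from microglia and has also been described in oligodendrocytes and astrocytes, so the markers of these cells are given beside it. In the same motor neuron libraries, the 10 microglial markers summed to 45.0 and 42.0 RPKM in SMA mice, against 22.4 and 22.3 RPKM in WT mice. The 8 markers of myelinating oligodendrocytes, of which Opalin was listed at 0 in all motor neuron libraries, summed to 112 and 78.0 RPKM in SMA mice, against 63.4 and 39.6 RPKM in WT mice. The microglial and myelin sums were higher in both SMA libraries than in both WT libraries. Of the 10 microglial markers 7 had an SMA minus WT difference above 0 and 3 below 0. Those with an unadjusted p under 0.05 by limma (C1qa, Cx3cr1, Tmem119 and Tyrobp) were all higher in SMA motor neurons. Tyrobp was at 17.5 and 14.2 RPKM there, against 6.77 and 7.34 RPKM in WT motor neurons. Itgam, an integrin gene among the 3 below 0, was at 0.238 and 0.215 RPKM in SMA motor neurons, against 1.86 and 0.524 RPKM in WT motor neurons. The 6 oligodendrocyte precursor markers summed to 76.3 and 66.7 RPKM in SMA motor neurons, against 68.5 and 61.1 RPKM in WT motor neurons. The 7 astrocyte markers gave 826 and 680 RPKM in SMA motor neurons, against 746 and 687 RPKM in WT motor neurons, so these groups overlapped. Aldoc alone held 647 and 578 RPKM of the SMA sums and 629 and 587 RPKM of the WT sums. Gfap was at 23.5 and 18.2 RPKM in SMA motor neurons, against 4.80 and 9.04 RPKM in WT motor neurons. The 7 motor neuron markers gave 535 and 541 RPKM in SMA motor neurons, against 619 and 637 RPKM in WT motor neurons.

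Between SMA and WT motor neurons limma called 0 of the 64 marker genes tested in 12 lists, with 10 (15.6%) at an unadjusted p under 0.05, against 609 (4.37%) of all genes, and limma-voom called 0. Of these 10 genes 4 were microglial markers. The difference was above 0 for 7 of 10 microglial markers with a median of 0.71, and for 6 of 7 myelin markers with a median of 0.49. It was above 0 for 6 of 7 astrocyte markers with a median of 0.12, and for 3 of 6 oligodendrocyte precursor markers with a median of 0.02. It was above 0 for 6 of 6 interneuron markers with a median of 0.41, and for 0 of 7 motor neuron markers with a median of -0.26. The median over all genes was -0.05. Interneuron markers summed to 69.9 and 71.6 RPKM in SMA motor neurons, against 62.0 and 38.6 RPKM in WT motor neurons. Meningeal fibroblast markers summed to 15.1 and 7.14 RPKM in SMA motor neurons, against 3.75 and 4.62 RPKM in WT motor neurons. Sums for endothelial, pericyte and proliferating cell markers overlapped between the genotypes, and those for Schwann cells and sensory neurons stayed under 1 RPKM in motor neuron libraries. The part of other cells in the P2rx7 values was not tested beyond these sums. In these bulk captures fewer cells of a type and less RNA per cell cannot be told apart.

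**Figure D2:**
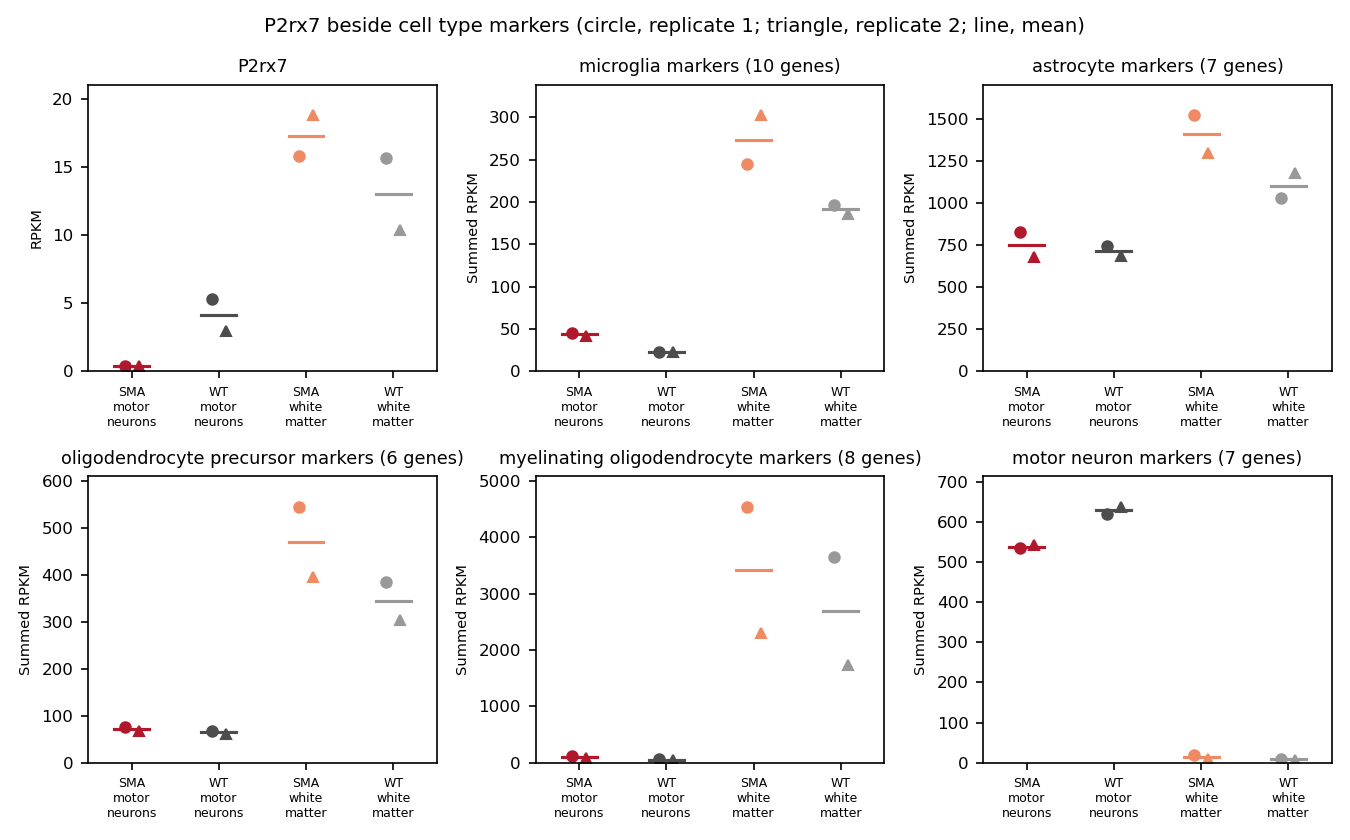
P2rx7 in RPKM and the summed RPKM of 5 marker lists (vertical axes, linear, from 0) in SMA and WT motor neurons and SMA and WT white matter, with a circle for replicate 1, a triangle for replicate 2 and a line for the mean of the 2 libraries. Among motor neuron libraries, P2rx7 was lowest in the 2 SMA libraries, where the microglial sums of 45.0 and 42.0 RPKM lay above the WT sums of 22.4 and 22.3 RPKM.

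The P2rx7 value depends on a short gene model. The read numbers recovered from the RPKM steps fit a P2rx7 model of 808 bases. The nearest of 8 P2rx7 transcripts in GENCODE has 712 bases and 4 exons, against 4936 bases and 13 exons for the longest. Which exons the 808 bases cover is not given in the sources used here, so the values may speak for a stretch of the gene and not for every P2rx7 transcript. For the other receptor genes the model was 1993 bases for P2rx4, 2288 for P2rx5, 2265 for P2rx6, 4190 for P2rx3, 3886 for P2ry1, 5782 for Adora1 and 2534 for Adora2a. The P2rx3 and Adora1 models were longer than the longest GENCODE transcripts of these genes, at 1812 and 4968 bases. The GENCODE overlaps with other genes given below may thus differ from those of the models counted.

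The genes whose levels followed P2rx7 most closely over the 8 libraries were Syf2 (Pearson's r = 0.98 on log2(RPKM + 1)), Glb1l, 1700034H14Rik, Shmt1 and Tead2, each with r = 0.98 to 2 decimals. These values are descriptive, since the 8 libraries fall into 2 regions and the genes were the highest of all tested. Shmt1, an enzyme of folate metabolism, was at 0.101 and 0.259 RPKM in SMA motor neurons, against 2.04 and 0.687 RPKM in WT motor neurons. Syf2, a splicing factor, was at 6.34 and 6.04 RPKM in SMA motor neurons, against 12.8 and 10.2 RPKM in WT motor neurons. For P2rx5 the closest gene was Gna14, which encodes a G protein alpha subunit (r = 0.99), for Adora1 it was Hdac11, a histone deacetylase (r = 0.99), and for P2ry1 it was Sft2d2 (r = 0.99).

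Among the other P2X channels, P2rx4 had the highest mean RPKM in motor neurons of each genotype. It was at 5.26 and 2.49 RPKM in SMA motor neurons, against 3.25 and 3.76 RPKM in WT motor neurons, so the groups overlapped. In white matter it was at 6.93 and 5.23 RPKM in SMA mice, against 10.3 and 7.47 RPKM in WT mice. Its direction in white matter, SMA below WT in both libraries, was opposite to that of P2rx7. P2rx5, another ATP-gated channel, was at 1.11 and 0.674 RPKM in SMA motor neurons, against 2.35 and 1.56 RPKM in WT motor neurons. In white matter P2rx5 was at 0.294 and 0.0425 RPKM in SMA mice and near 0 in WT mice, at 0.0101 and 0.0045 RPKM or 2 and 1 reads. Nearly all P2rx5 reads thus came from motor neurons, with both SMA motor neuron libraries under both WT ones.

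P2rx6, a channel subunit that forms functional receptors mainly together with other P2X subunits, was at 0.368 and 1.22 RPKM in SMA motor neurons, against 4.24 and 1.55 RPKM in WT motor neurons. In white matter it was at 0.406 and 0.859 RPKM in SMA mice, against 1.06 and 0.616 RPKM in WT mice. The WT motor neuron libraries differed widely for P2rx6, and replicate 1 stood alone. P2rx3, best known as the ATP channel of sensory neurons, stayed under 1 RPKM in all libraries. It was at 0.403 and 0.936 RPKM in SMA motor neurons, against 0.467 and 0.443 RPKM in WT motor neurons, and at 0.185 and 0.281 RPKM in SMA white matter, against 0.176 and 0.032 RPKM in WT white matter. The 5 sensory neuron markers summed to at most 1.05 RPKM in any library.

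P2ry1, a receptor for ADP that acts through phospholipase C, was at 1.23 and 1.16 RPKM in SMA motor neurons, against 0.808 and 0.691 RPKM in WT motor neurons. In white matter P2ry1 was at 2.76 and 3.41 RPKM in SMA mice, against 3.42 and 4.30 RPKM in WT mice. The SMA libraries thus lay above the WT ones in motor neurons and below them in white matter. Adora1 was the receptor gene with the highest level in motor neurons, at 24.2 and 23.1 RPKM in SMA mice, against 21.2 and 18.9 RPKM in WT mice. In white matter Adora1 was at 7.81 and 11.5 RPKM in SMA mice, against 7.06 and 7.38 RPKM in WT mice. Adora2a, the receptor that raises cyclic AMP in response to adenosine, was near the limit of detection, at 0 and 0.105 RPKM in SMA motor neurons, against 0.013 and 0.0611 RPKM in WT motor neurons. In white matter it was at 0.424 and 0.157 RPKM in SMA mice, against 0.372 and 0.171 RPKM in WT mice, and a library at 0 allows up to 3 reads.

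Motor neurons and white matter of WT mice differed in 2 of 4 receptor genes, with Adora1 higher and P2ry1 lower in motor neurons. P2rx7 is not counted, nor is P2rx5, which entered the test only through its motor neuron libraries, so the filter favoured higher values there. Over all genes 28.4% passed the threshold, 18.6% higher and 9.85% lower, and calls for higher genes were 65.4% of all calls on the deposited scale but 51.7% after quantile normalization. Adora1 was higher by 1.36 ± 0.28 (SE; adjusted p = 0.0065, limma), a ratio of 2.78 in mean RPKM. As a description, the P2rx5 difference was 1.54, and it was 4.23 with a pseudocount of 0.1 RPKM and 7.72 with limma-voom. P2ry1 differed by -1.47 ± 0.33 (adjusted p = 0.0087, limma), with WT motor neurons at 19.4% of the WT white matter level. P2rx4 differed by -1.12 ± 0.38 with an adjusted p of 0.0512 by limma, and it passed the threshold under 8 of 18 alternative settings. P2rx6 differed by 1.00 ± 0.44 (adjusted p = 0.122, limma). The P2rx6 difference was 0.48 to 1.52 over the left-out libraries. The 4 genes counted had libraries that did not overlap between the regions, 2 higher and 2 lower in motor neurons, against 39% of all genes higher and 31% lower.

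These calls rest on few libraries. Without replicate 1 of WT motor neurons neither passed, with adjusted p values of 0.0641 for Adora1 and 0.0536 for P2ry1 by limma, and P2ry1 also missed it without WT motor neuron replicate 2 (adjusted p = 0.0633) and without WT white matter replicate 2 (adjusted p = 0.0716).

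In SMA mice 1 of these 4 receptor genes, Adora1, differed between motor neurons and white matter. It was higher in motor neurons by 1.23 ± 0.28 (SE; adjusted p = 0.0105, limma), a ratio of 2.46 in mean RPKM. Over all genes 30.8% passed, 13.6% higher and 17.2% lower, with a median difference of -0.24 that was -0.07 after median-of-ratios scaling. P2ry1 differed by -0.89 ± 0.33 (adjusted p = 0.0641, limma), P2rx4 by -0.59 ± 0.38 (adjusted p = 0.262) and P2rx6 by 0.11 ± 0.44 (adjusted p = 0.873). The P2rx5 difference, again a description, was 0.70, and it was 2.03 with a pseudocount of 0.1 RPKM and 2.94 with limma-voom. Adora1 had non-overlapping libraries higher in motor neurons, and P2ry1 lower, against 26.7% and 37.2% of all genes. The Adora1 call was lost without SMA white matter replicate 1 (adjusted p = 0.0829) and when only the SMA libraries were fitted (adjusted p = 0.0567, limma). P2rx4 reached an adjusted p of 0.0498 without SMA motor neuron replicate 1.

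Between SMA and WT motor neurons none of the 5 receptor genes tested passed the threshold in limma, where 0% of all genes did. Of the 5, P2rx6 alone had an unadjusted p under 0.05, as did 609 (4.37%) of all genes, and limma-voom called none of the 5. P2rx6 differed by -1.07 ± 0.44 (SE; 95% interval -2.06 to -0.08; adjusted p = 1.0, limma). P2rx5 differed by -0.64 ± 0.34 (95% interval -1.40 to 0.12), P2ry1 by 0.33 ± 0.33 (95% interval -0.41 to 1.06), Adora1 by 0.23 ± 0.28 (95% interval -0.41 to 0.87) and P2rx4 by 0.06 ± 0.38 (95% interval -0.79 to 0.90), each with an adjusted p of 1.0. These intervals leave room for changes of more than 1 on the log2 scale in P2rx5, P2rx6 and P2ry1. Without WT motor neuron replicate 1 the P2rx6 difference was -0.55, and without WT motor neuron replicate 2 it was -1.59. Libraries did not overlap for P2ry1 and Adora1, which were higher in SMA, and for P2rx5 and P2rx6, which were lower, against 12.7% of all genes higher and 15.5% lower. P2rx7, chosen for these values, is not counted. Without SMA motor neuron replicate 1, the count over all genes was 122 and that of the receptor genes stayed at 0.

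In white matter none of the 6 receptor genes passed between SMA and WT mice in limma, nor in limma-voom. None had an unadjusted p under 0.05, against 880 (6.31%) of all genes. Here too 0% of all genes were called. P2rx4 differed by -0.48 ± 0.38 (SE; adjusted p = 0.785), Adora1 by 0.35 ± 0.28 (adjusted p = 0.790), P2ry1 by -0.25 ± 0.33 (adjusted p = 0.878), P2rx5 by 0.21 ± 0.34 (adjusted p = 0.907) and P2rx6 by -0.18 ± 0.44 (adjusted p = 0.943), all by limma. The P2rx5 value, which rests on few reads, was 1.14 with a pseudocount of 0.1 RPKM and 3.63 with limma-voom. Set against the median of all genes, P2rx4 lay 0.75 below, P2ry1 0.52 below, P2rx6 0.45 below and Adora1 0.08 above it. P2rx5, P2rx7 and Adora1 had SMA libraries above both WT libraries, against 39.7% of all genes, and P2rx4 and P2ry1 had them below, against 4.17% of all genes.

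**Figure D3:**
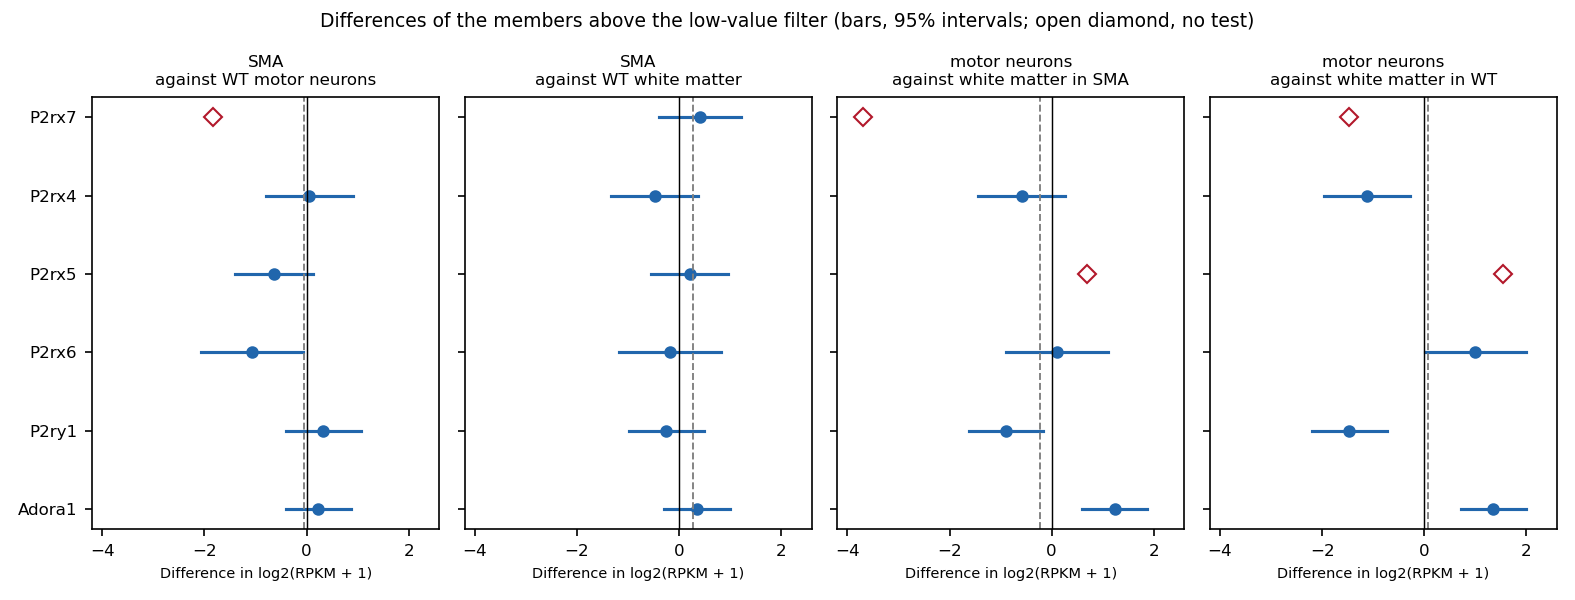
Differences in log2(RPKM + 1) for the 6 receptor genes above the low-value filter, in 4 comparisons named above the panels, with the first-named group positive. Filled circles are limma estimates with 95% intervals, open diamonds are values given without a test (P2rx7, and P2rx5 between regions), and the dashed line is the median of all genes. Adora1 was higher in motor neurons by 1.23 in SMA and 1.36 in WT mice, and the P2rx7 diamond for SMA against WT motor neurons stands at -1.83.

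The SMA effect in motor neurons was tested against that in white matter, and none of the 5 receptor genes tested passed the threshold, with 0% of all genes called by limma. None of the 5 had an unadjusted p under 0.05, against 693 (4.97%) of all genes, and limma-voom called none. The difference of effects was -0.84 ± 0.48 for P2rx5, -0.90 ± 0.63 for P2rx6 and 0.57 ± 0.46 for P2ry1 (SE; adjusted p = 0.883 each, limma). It was 0.53 ± 0.53 for P2rx4 (adjusted p = 0.890) and -0.12 ± 0.40 for Adora1 (adjusted p = 0.958), which was 0.22 after median-of-ratios scaling. P2rx5 and P2ry1 had SMA libraries that did not overlap the WT ones in either region and lay on opposite sides of them in motor neurons and white matter, as 6.19% of all genes did. For P2rx5 the difference of effects was -2.20 with a pseudocount of 0.1 RPKM and -4.79 with limma-voom, and for P2rx6 it was -1.42 to -0.37 over the left-out libraries.

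Reads of overlapping genes bear on some of these values. Whether the authors counted by strand is not given in the sources used here. Adora1 shares 1162 exonic bases with Mybph on the opposite strand, and reads within these bases cannot be told apart. Mybph was at 22.1 and 17.9 RPKM in SMA motor neurons, against 16.1 and 14.9 RPKM in WT motor neurons, and at 5.70 and 12.2 RPKM in SMA white matter, against 7.34 and 5.61 RPKM in WT white matter. Mybph, like Adora1, was higher in every motor neuron library than in every white matter library. Reads within the shared bases of 3 other gene pairs on opposite strands cannot be told apart either. The pairs are P2rx6 and Slc7a4, with 554 shared exonic bases, P2ry1 and Gm37035, with 992, and P2rx3 and Ssrp1, with 51. Slc7a4 was at 11.2 and 13.7 RPKM in SMA motor neurons, against 13.1 and 18.2 RPKM in WT motor neurons, far above P2rx6 itself. The microRNA gene Mir8115 lies within P2rx7 on the same strand, with 119 shared exonic bases. The shares of these genes in the receptor values were not tested.

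The rest of the purine pathway was read from lists of receptors, enzymes, transporters and release channels. Of the 32 genes tested in these 5 lists, limma and limma-voom each called 0 between SMA and WT mice in either region. At an unadjusted p under 0.05 there were 2 in motor neurons (Enpp3 and Entpd2) and 3 in white matter (Alpl, Lrrc8a and Panx1), or 6.25% and 9.38% of the 32, against 4.37% and 6.31% of all genes. The list of 11 other purine receptors had 7 tested members, while P2rx1, P2ry2, P2ry4 and P2ry10 stayed under 1 RPKM. For genes that reached 1 RPKM in 1 region alone, the filter favoured higher values in that region, though not a call. They are left out of the counts between regions: P2rx2 and Entpd3, which passed only through motor neurons, and Adora3 and Gjb1, which passed only through white matter. Of the 5 other receptors left, 4 (P2ry6, P2ry12, P2ry13 and Adora2b) were lower and 0 higher in motor neurons than in white matter of each genotype, against 17.2% and 13.6% of all genes in SMA mice and 9.85% and 18.6% in WT mice. Their median difference was -1.34 in SMA mice, against -0.24 over all genes, and -1.63 in WT mice, against 0.08 over all genes. P2ry12, the ADP receptor that marks microglia, was at 2.52 and 1.54 RPKM in SMA motor neurons, against 25.9 and 31.0 RPKM in SMA white matter, and at 2.53 and 2.39 RPKM in WT motor neurons, against 16.9 and 33.3 RPKM in WT white matter. P2rx2, a neuronal ATP channel, was at 1.90 and 1.27 RPKM in SMA motor neurons, against 0.012 and 0.068 RPKM in SMA white matter.

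The 10 microglial markers summed to 244 and 302 RPKM in SMA white matter and 197 and 186 RPKM in WT white matter, several times their sums in motor neurons, and the part of microglia in the receptor differences between regions was not tested. Between SMA and WT motor neurons the values of P2ry12 given above overlapped, and so did those of P2ry13. P2ry13, another microglial ADP receptor, was at 1.61 and 0.893 RPKM in SMA motor neurons, against 0.769 and 1.29 RPKM in WT motor neurons. P2ry6, a receptor for UDP, was at 2.96 and 1.32 RPKM in SMA motor neurons, against 0.842 and 0.841 RPKM in WT motor neurons, a difference of 0.72 ± 0.39 (SE; adjusted p = 1.0, limma).

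Ectonucleotidases, which break down extracellular ATP, had 8 tested members of 10. Without Entpd3, 5 of 7 (Entpd1, Entpd2, Enpp1, Enpp2 and Alpl) were lower and 0 higher in motor neurons than in white matter of SMA mice, against 17.2% and 13.6% of all genes, with a median of -1.76 against -0.24. In WT mice 1 of 7, Enpp2, was lower and 0 higher, against 9.85% and 18.6% of all genes, with a median of -0.71 against 0.08. Enpp2, which makes lysophosphatidic acid and can also split nucleotides, was at 21.1 and 10.2 RPKM in SMA motor neurons, against 247 and 181 RPKM in SMA white matter. In WT mice it was at 12.4 and 14.2 RPKM in motor neurons, against 163 and 165 RPKM in white matter. Entpd3, a membrane enzyme that hydrolyses ATP and ADP, was at 1.02 and 3.84 RPKM in SMA motor neurons and listed at 0 and 0.006 RPKM in SMA white matter.

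Entpd2, which turns ATP into ADP, was lower in both SMA motor neuron libraries than in both WT ones. It was at 0.139 and 0.558 RPKM in SMA motor neurons, against 2.04 and 3.03 RPKM in WT motor neurons, and at 3.60 and 5.59 RPKM in SMA white matter, against 2.91 and 5.46 RPKM in WT white matter. Its SMA minus WT difference in motor neurons was -1.39 ± 0.40 (SE; adjusted p = 0.752, limma), which did not pass the threshold. Enpp3, another nucleotide-splitting enzyme, was at 0 and 0.065 RPKM in SMA motor neurons, against 0.644 and 1.31 RPKM in WT motor neurons, a difference of -0.92 ± 0.37 (SE; adjusted p = 1.0, limma). Both genes were singled out after their values were seen. Nt5e, the enzyme that completes the conversion to adenosine, was at 0.451 and 0.078 RPKM in SMA motor neurons, against 1.03 and 0.314 RPKM in WT motor neurons.

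Adenosine is cleared by transporters and by the enzymes Ada and Adk, and 7 of the 10 genes of this list were tested. The equilibrative transporter genes Slc29a2 and Slc29a4 were higher in motor neurons than in white matter of both genotypes, and none was lower. Over all genes 13.6% were higher and 17.2% lower in SMA mice, and 18.6% and 9.85% in WT mice. Slc29a4, which carries adenosine and monoamines, was at 30.7 and 40.1 RPKM in SMA motor neurons, against 10.2 and 6.86 RPKM in SMA white matter, and at 39.2 and 35.5 RPKM in WT motor neurons, against 6.29 and 4.70 RPKM in WT white matter. The median of this list was -0.43 in SMA mice, against -0.24 over all genes, and -0.16 in WT mice, against 0.08 over all genes.

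Of 9 genes for ATP release 5 were tested. Of the 4 left without Gjb1, the gap junction gene Gja1 was lower in motor neurons than in white matter of both genotypes. The pannexin gene Panx2 was higher in WT mice. Over all genes 17.2% were lower and 13.6% higher in SMA mice, and 9.85% and 18.6% in WT mice. The medians of these 4 genes were -0.28 in SMA mice and 0.27 in WT mice, against -0.24 and 0.08 over all genes. Gja1, the astrocyte connexin 43 gene, was at 20.9 and 14.7 RPKM in SMA motor neurons, against 72.2 and 57.5 RPKM in SMA white matter. Panx1, a pannexin that releases ATP and is known as a partner of P2X7, was at 16.7 and 23.4 RPKM in SMA motor neurons, against 17.1 and 18.3 RPKM in WT motor neurons. It showed no call in any comparison.

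Genes that act with P2X7 in the inflammasome ranged widely in level. Il1b was listed at 0 in all 8 libraries, but so was Hmgcs1, a cholesterol synthesis gene that cells in general use, so no level is read from that 0. Nlrp3, the sensor protein, stayed under 1 RPKM. Of the 5 tested members of 8, Pycard and Nek7 were lower and 0 higher in motor neurons than in white matter of SMA mice. Over all genes 17.2% were lower and 13.6% higher. The list median was -1.23, against -0.24 over all genes. In WT mice none passed by limma or limma-voom, against 9.85% of all genes lower and 18.6% higher by limma. The median there was -0.78, against 0.08 over all genes. By limma 2 of the 5 (Il18 and Nek7) had an unadjusted p under 0.05 in WT mice, against 40.1% of all genes. Nek7, a kinase that NLRP3 activation requires, was at 9.92 and 5.83 RPKM in SMA motor neurons, against 17.8 and 25.8 RPKM in SMA white matter. The Pycard call held in 5 of 17 alternative settings.

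**Figure D4:**
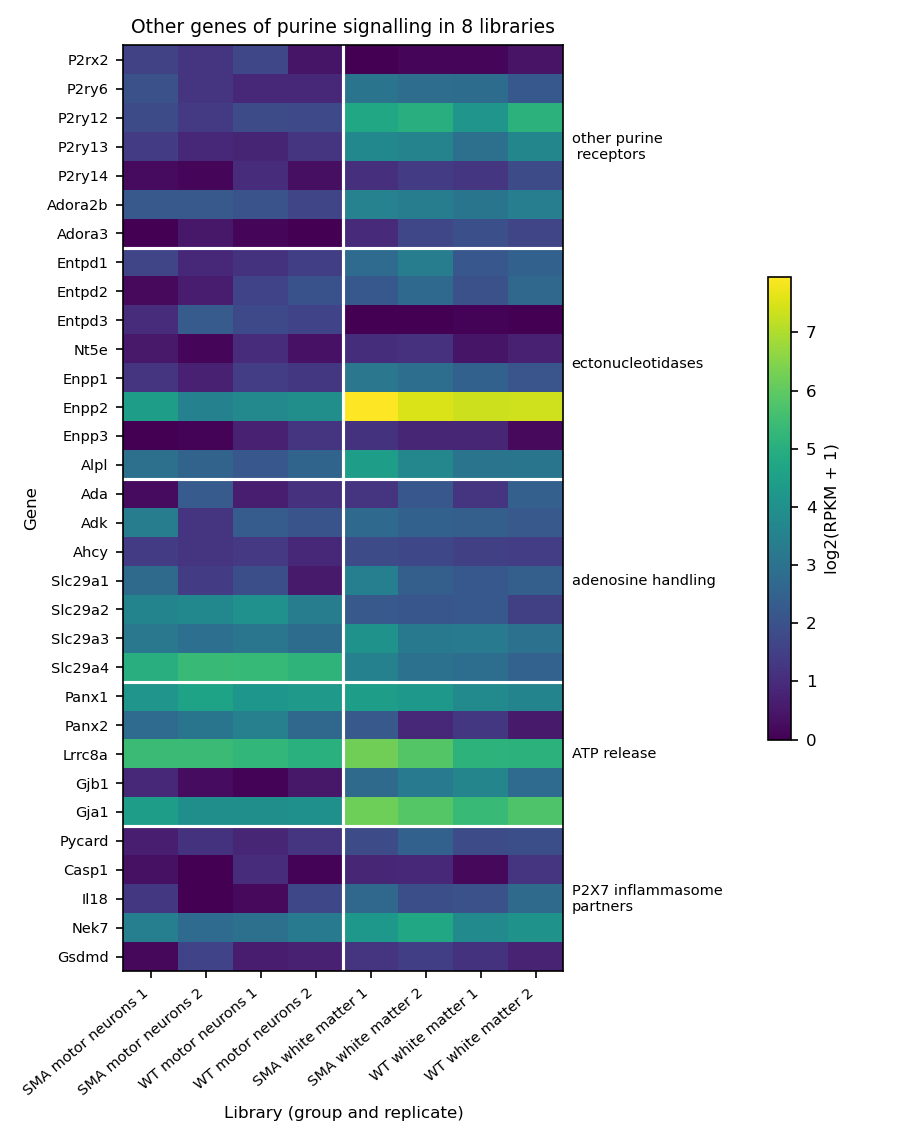
Heat map of log2(RPKM + 1) for the tested genes of 5 purine pathway lists (rows, list names at the right) in the 8 libraries (columns, motor neurons left of the white line and white matter right of it). Enpp2, Gja1 and P2ry12 are brighter in white matter and Slc29a4 in motor neurons, and Entpd2 is darkest in SMA motor neurons at 0.139 and 0.558 RPKM.

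Without the genes that passed through 1 region alone, 7 of the 14 calls between the SMA regions and 5 of the 9 between the WT regions held under every alternative setting. The calls for P2ry12, P2ry13, Enpp2, Slc29a4 and Gja1 held throughout in both genotypes, and those for Entpd2 and Enpp1 in SMA mice. In WT mice the others were lost on leaving out compared libraries: motor neuron replicate 1 for P2ry6, Slc29a2 and Panx2, motor neuron replicate 2 for P2ry6 and Adora2b, white matter replicate 1 for P2ry6, and white matter replicate 2 for Adora2b, Slc29a2 and Panx2. The highest adjusted p over the alternatives was 0.0990 for P2ry6, 0.0879 for Adora2b, 0.0632 for Slc29a2 and 0.101 for Panx2 by limma. In SMA mice the calls for P2ry6, Adora2b, Alpl, Pycard and Nek7 were lost when only the compared libraries were fitted. Calls were also lost there on leaving out motor neuron replicate 1 for Pycard and motor neuron replicate 2 for P2ry6 and Alpl. The same went for white matter replicate 1 for P2ry6, Adora2b, Alpl, Slc29a2 and Pycard. It went for white matter replicate 2 for P2ry6, Adora2b, Entpd1, Slc29a2, Pycard and Nek7. There the highest adjusted p was 0.136 for P2ry6, 0.109 for Adora2b, 0.0758 for Entpd1, 0.164 for Alpl, 0.0775 for Slc29a2, 0.206 for Pycard and 0.114 for Nek7 by limma.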

How the data were processed

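RNA was measured in 8 laser-captured libraries. Per the labels' protocols, the RNeasy Plus Micro kit gave total RNA, the Ovation RNA-seq System V2 amplified it to cDNA, and the Encore NGS Library System I built libraries from sheared cDNA. The authors deposited RPKM values by gene symbol. The submitters' processing notes name TopHat, bedtools, DESeq and the mm9 genome, without versions. Annotation, counting rule and strand use: not given in the sources used here.

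The 8 receptor genes and all gene lists were chosen with earlier results of these data known. All receptor genes were named. List genes were named when called, with at most 4 more per list by mean RPKM, and other genes named were picked after their values were seen. In R 4.3.3, limma 3.58.1 fitted 4 group means over all 8 libraries to log2(RPKM + 1) (eBayes with trend, two-sided, Benjamini-Hochberg over 13948 genes with at least 1 RPKM in 2 libraries). Read numbers came from the RPKM steps, at 43.3 to 66.8 M reads on genes. In setting the library sizes, 1662 of 1683 values of small hairpin genes lay close to whole reads. The tighter limit of 0.001 of a read applied only to the fit of gene lengths. Read numbers were used for limma-voom and to state the reads behind values. A value of 0 was taken to allow 3 reads, which covers counting error only. Scripts were tested on simulated data. Alternatives were other pseudocounts, filters and scalings, eBayes without trend, only the groups compared, a replicate block, voom, and leaving out each library, where a group's lone remaining library was assumed to vary like the others. Promoters are from RefSeq (GRCm38.p6), matched by symbol for 5 of 8 genes. Gene models and overlaps are from GENCODE M21, whose build differs from the files', so only its names, strands, lengths and exon overlaps were used. Python 3.11.15, numpy 2.4.6, pandas 2.3.3 and matplotlib 3.10.9 were used.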

Additional observations from a re-analysis of the deposited data

Results flagged for a closer look

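For P2rx5 and P2ry1 the SMA libraries lay wholly on opposite sides of the WT libraries in motor neurons and in white matter, as they did for 6.19% of all genes tested. They did so for P2rx7 too, whose side in motor neurons its selection fixed. For P2rx7 the SMA effect in motor neurons minus that in white matter was -2.24 in log2(RPKM + 1), and it was not tested because its motor neuron values chose it. For P2rx5 the difference of effects was -0.84 and for P2ry1 it was 0.57, and neither passed (adjusted p = 0.883 each, limma). P2rx5 had 65 and 10 reads in SMA white matter, against 2 and 1 reads in WT white matter.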

How the results depend on the processing

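Directions and calls of the receptor genes held under most of the 18 alternatives (17 for the difference of effects). No receptor gene was called between SMA and WT in either region, or in the difference of effects, under any of them. With P2rx5 counted, the number called between regions of WT mice was 3, and 0 without WT motor neuron replicate 1, with 0 to 4 over the left-out libraries. In SMA mice it was 1, 2 with eBayes without trend, 0 with only the compared libraries, and 0 to 2 over the left-out libraries.

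The P2rx7 difference between SMA and WT motor neurons of -1.83 was -3.02 with a pseudocount of 0.1 RPKM, -2.31 with 0.5 RPKM and -3.30 with limma-voom, and -2.16 to -1.49 over the left-out libraries. Some small differences changed sign. For P2rx4 between SMA and WT motor neurons it was -0.026 without WT replicate 1 and -0.37 without SMA replicate 1 (leaving out libraries, -0.37 to 0.48). For P2rx6 between SMA and WT white matter it was 0.00026 without WT replicate 1 and 0.026 without SMA replicate 1 (-0.38 to 0.026). For P2rx6 between the SMA regions it was -0.24 without SMA motor neuron replicate 2 and -0.094 without SMA white matter replicate 1 (-0.24 to 0.46). The Adora1 difference of effects was 0.22 with median-of-ratios scaling, 0.18 with quantile normalization and 0.13 without SMA white matter replicate 2 (leaving out libraries, -0.37 to 0.13). The cause was not tested.

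Over all genes, the number called between SMA and WT motor neurons was 0, 122 without SMA motor neuron replicate 1 and 1 without a filter, and in white matter 1 under 5 settings. Between WT regions it was 3967, and 2015 to 2596 with each of the 4 compared libraries left out. Between SMA regions it was 4295, 2415 with only the compared libraries, and 2271 and 2395 without a white matter library. For the difference of effects it was 17 without SMA motor neuron replicate 1.

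With the replicate number as a block, P2rx4 passed between the WT regions (adjusted p = 0.0475, limma), no other receptor call changed and the P2rx7 difference was -1.83. Same-numbered libraries did not deviate together (correlations -0.34 to 0.08), so they were not taken as pairs, although the numbers went with sex in each group and the block thus also adjusts for sex. Few reads stand behind Adora2a in motor neurons and P2rx5 in white matter.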
